A study of Sus scrofa with 10 samples.

Results

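Subcutaneous adipose tissue was compared with liver in 60-day-old Northeast Min pigs. The comparison rests on 2 of the 10 RNA-seq libraries of the series, 1 from subcutaneous adipose tissue and 1 from liver, which the sample labels name by tissue. Both came from the same breed and age, and total RNA was used for each. The labels mention no treatment and do not say whether both tissues came from the same animal. Libraries of 7 other tissues (heart, spleen, lung, kidney, psoas major, longissimus dorsi and ovary) are used here only for context. Values are FPKM, fragments counted per length of transcript and per size of library, so that genes can be set side by side. Differences are given as log2(FPKM + 1) in adipose tissue minus log2(FPKM + 1) in liver, which understates the change of genes near 0. They cover the 7804 of 25880 genes that reached 5 FPKM in either library, and a gene is called higher on a side when the difference is at least 2 (4-fold on that scale). With 1 library in each tissue there is no replicate error and no p-value, and every difference below is between these libraries. In whole tissue, fewer cells of a type and less RNA per cell cannot be told apart.

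Fat tissue and liver divide the handling of lipids between them. Adipocytes take up fatty acids that lipoprotein lipase releases from circulating lipoproteins, join them to glycerol, and keep the triglyceride in a large droplet until lipases break it down. Hepatocytes also make fatty acids and triglyceride, but export fat in lipoproteins, make and excrete cholesterol as bile acids, and turn fatty acids into ketone bodies. In adult pigs most new fatty acids are made in adipose tissue rather than in liver.

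The summed FPKM was 301396 in adipose tissue and 337975 in liver, and the 10 highest genes held 10.6% and 24.9% of these sums. Steps in the values of short genes pointed to 35.8 M counting units in adipose tissue and 32.2 M in liver, where a unit may be a fragment or a single read of a pair. On that scale 1 unit in a transcript of 1 kb is worth 0.0279 FPKM in adipose tissue and 0.031 FPKM in liver, so values below about 0.1 FPKM rest on few reads. These figures are rough, since the steps matched loosely, with a mean cosine of 0.22 in adipose tissue and 0.23 in liver (1 is exact). Gene span also stood in for transcript length. Of all genes tested, 1041 (13.3%) were higher in adipose tissue and 685 (8.78%) were higher in liver. The median difference over all genes tested was 0.75, so most genes lay somewhat towards adipose tissue, and list medians are to be read against that value. Centring the differences on this median gave 530 genes higher in adipose tissue and 966 in liver so that 35.4% of the calls lay on the adipose side, against 60.3% without centring. Median-of-ratios scaling gave 583 in adipose tissue and 1129 in liver, and quantile normalisation 651 and 869. Which tissue is the higher for a gene with a difference under about 1 towards adipose tissue therefore turns with the scaling.

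The tissue labels were checked against marker genes. FABP4, an intracellular carrier of fatty acids in adipocytes (ENSSSCG00000040681, chromosome 4, 55096228 to 55101209 on Sscrofa11.1), stood at 4919 FPKM in adipose tissue and 1.44 FPKM in liver. PLIN1, which coats the adipocyte lipid droplet (ENSSSCG00000001844, chromosome 7, 55237349 to 55251510), stood at 907 FPKM in adipose tissue and 1.25 FPKM in liver. APOC3, an apolipoprotein that slows the clearance of triglyceride-rich particles (ENSSSCG00000015069, chromosome 9, 44211164 to 44213733), stood at 32.8 FPKM in adipose tissue and 12043 FPKM in liver. FASN, the fatty acid synthase gene (ENSSSCG00000029944, chromosome 12, 922418 to 937560), was present in both, at 52.2 FPKM in adipose tissue and 30.0 FPKM in liver, and so separated the tissues least (a difference of 0.78, and -0.15 with median-of-ratios scaling). All 7 tested adipocyte markers were higher in adipose tissue, and all 9 tested hepatocyte markers were higher in liver. The 8 matched adipocyte markers summed to 8887 FPKM in adipose tissue and 9.84 FPKM in liver, and the 10 hepatocyte markers to 148 FPKM in adipose tissue and 37380 FPKM in liver. LEP, the leptin gene, was below the filter at 2.95 FPKM in adipose tissue and was listed at 0 in liver. A gene model named SERPINA1 was listed at 0 in adipose tissue and reached only 0.55 FPKM in liver. It belongs to a family of close copies, so its value is uncertain.

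The 14 lists of lipid and energy genes held 234 genes, of which 228 were matched by symbol and 198 passed the filter. Of those 198, 40 (20.2%) were higher in adipose tissue, 69 (34.8%) were higher in liver, and 89 lay between. Over all 7804 genes tested the shares were 13.3% and 8.78%. The counts of each list below are to be read against these shares, and several short lists lie near them. Among the 9 tissues, adipose tissue had the highest value for 49 (24.7%) of the 198 genes and liver for 77 (38.9%), beside 10.8% and 9.67% of all 7804 genes tested, which the filter had chosen by their level in these tissues.

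**Figure D1:**
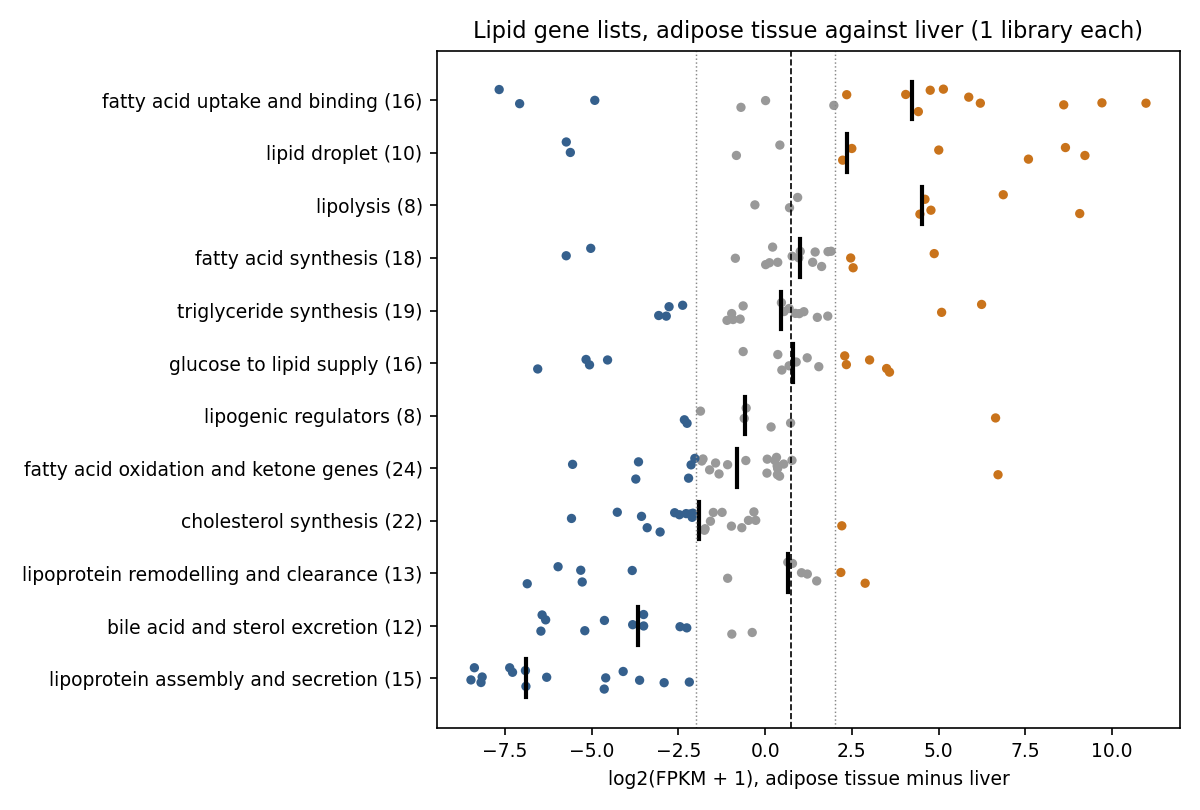
Difference of each tested member of 12 lipid gene lists, as log2(FPKM + 1) in adipose tissue minus liver; each point is a gene, orange where it is at least 2, blue where it is -2 or less, and grey between, and the number tested stands beside each list. Black bars are list medians, dotted lines mark 2 and -2, and the dashed line is the all-gene median of 0.75. Most uptake, droplet and lipolysis genes lie to the right, but 3 uptake and 2 droplet genes lie to the left of -2. All 15 lipoprotein assembly genes lie to the left of -2.

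Genes that bring fatty acids into the cell lay mostly towards adipose tissue. Of 16 tested genes of uptake and binding, 10 were higher in adipose tissue and 3 in liver, and the median difference was 4.23. LPL, lipoprotein lipase, which frees fatty acids from lipoproteins at the vessel wall, stood at 896 FPKM in adipose tissue and 0.0741 FPKM in liver, a difference of 9.71. Its endothelial anchor GPIHBP1 stood at 29.9 FPKM in adipose tissue and 0.142 FPKM in liver. LMF1, a factor needed for the maturation of the lipase in the endoplasmic reticulum, was not divided in this way, at 14.7 FPKM in adipose tissue and 24.4 FPKM in liver. The fatty acid receptor gene CD36 stood at 554 FPKM in adipose tissue and 0.426 FPKM in liver, a difference of 8.60. CAV1 and CAV2, which form membrane pits called caveolae, stood at 87.3 and 39.5 FPKM in adipose tissue and at 1.51 and 1.44 FPKM in liver. For LPL, CD36 and GPIHBP1 adipose tissue had the highest value of the 9 tissues, and heart was next for LPL (167 FPKM) and CD36 (184 FPKM).

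The carriers inside the cell differed by isoform. FABP4 gave the largest difference of any named gene, 10.97, and FABP5 and FABP3, related carriers, followed at 209 and 258 FPKM in adipose tissue against 1.85 and 3.44 FPKM in liver. FABP1, the liver form, ran the other way, with 0.901 FPKM in adipose tissue and 255 FPKM in liver. DBI, which binds acyl-CoA, was abundant in both, at 957 FPKM in adipose tissue and 242 FPKM in liver, and its difference of 1.98 fell just short of the limit. The fatty acid transport genes of the SLC27 family were split as well. SLC27A3 stood at 22.3 FPKM in adipose tissue and 0.0933 FPKM in liver, whereas SLC27A2 and SLC27A5, which activate very long chain fatty acids and bile acids, stood at 0.445 and 0.236 FPKM in adipose tissue and at 42.4 and 249 FPKM in liver. SLC27A4 was nearly equal, at 6.61 FPKM in adipose tissue and 6.54 FPKM in liver.

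Lipid droplet genes separated by isoform. Of 10 tested, 6 were higher in adipose tissue and 2 in liver, with a median of 2.37. CIDEA, which fuses lipid droplets, stood at 792 FPKM in adipose tissue and 0.334 FPKM in liver, and CIDEC, another member of that family, at 243 FPKM in adipose tissue and 6.62 FPKM in liver. CIDEB, the member known from hepatocytes, stood at 0.73 FPKM in adipose tissue and 90.8 FPKM in liver. PLIN4 followed PLIN1, with 319 FPKM in adipose tissue and 0.663 FPKM in liver. The other coat genes differed less than PLIN1 and PLIN4: PLIN2 stood at 40.8 FPKM in adipose tissue and 7.87 FPKM in liver, PLIN5 at 15.4 FPKM in adipose tissue and 11.2 FPKM in liver, and PLIN3 at 6.73 FPKM in adipose tissue and 12.7 FPKM in liver. BSCL2, which encodes seipin of the droplet neck, stood at 49.3 FPKM in adipose tissue and 7.91 FPKM in liver, and after centring it and PLIN2 no longer passed the limit. HSD17B11, an enzyme found on droplets, was among the highest liver genes of the list, at 13.5 FPKM in adipose tissue and 708 FPKM in liver, and its close relative HSD17B13 was not matched by name.

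Of the 8 tested genes of lipolysis, 5 were higher in adipose tissue and none in liver, with a median of 4.53. The lipases that take triglyceride apart in sequence were all on that side. PNPLA2, the first, stood at 545 FPKM in adipose tissue and 21.4 FPKM in liver. LIPE, hormone-sensitive lipase, which acts next, stood at 604 FPKM in adipose tissue and 0.129 FPKM in liver, and MGLL, the last, at 212 FPKM in adipose tissue and 0.835 FPKM in liver. AQP7, a channel that lets glycerol leave the cell, stood at 53.3 FPKM in adipose tissue and 0.979 FPKM in liver. PRKAR2B, a regulatory subunit of protein kinase A, stood at 130 FPKM in adipose tissue and 4.94 FPKM in liver. ABHD5, the activator of PNPLA2, was similar in level, at 46.8 FPKM in adipose tissue and 57.6 FPKM in liver. The adrenergic receptor genes were hardly seen: ADRB1 and ADRB3 stood at 0.295 and 0.105 FPKM in adipose tissue and were listed at 0 in liver.

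**Figure D2:**
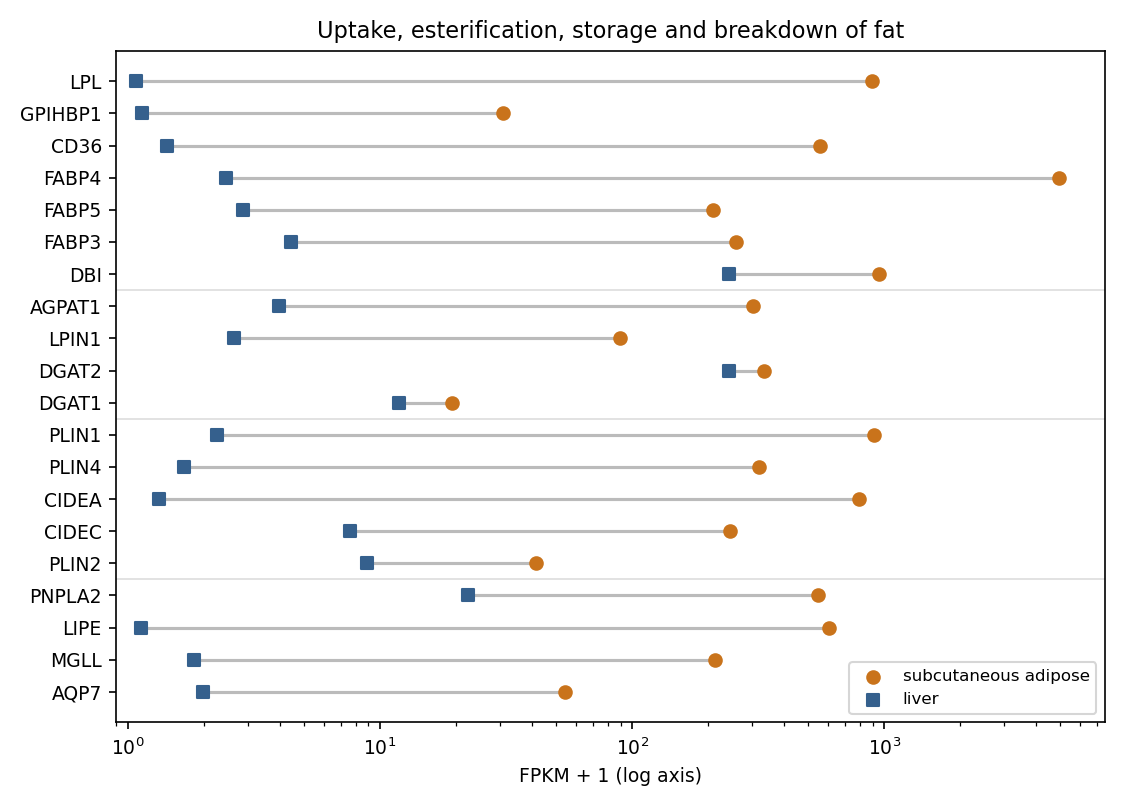
Levels of 20 genes of fatty acid uptake, esterification, droplet storage and lipolysis, from top to bottom, as FPKM + 1 on a log axis, with adipose tissue as orange circles and liver as blue squares (1 library each). The genes drawn were chosen after the values were seen, as those with a higher adipose value, and list members that lie towards liver (such as FABP1, CIDEB, GPAM and LPIN2) are not drawn. FABP4 is widest apart and DGAT2 (333 FPKM in adipose tissue, 240 FPKM in liver) and DGAT1 (18.2 FPKM in adipose tissue, 10.9 FPKM in liver) are nearest, and both turn towards liver with median-of-ratios scaling.

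Fatty acid synthesis was shared far more evenly. Of 18 tested genes, 3 were higher in adipose tissue, 2 in liver and 13 lay between, and the median was 0.99, beside 0.75 for all genes. ACLY, which makes acetyl-CoA from citrate, stood at 28.7 FPKM in adipose tissue and 10.5 FPKM in liver. ACACA, which makes malonyl-CoA, stood at 12.7 FPKM in adipose tissue and 9.61 FPKM in liver, a difference of 0.36 that turned to -0.52 with median-of-ratios scaling. The desaturase gene SCD was low in each, at 6.12 FPKM in adipose tissue and 5.13 FPKM in liver. The elongase genes ELOVL6 and ELOVL5 stood at 87.4 and 98.1 FPKM in adipose tissue and at 24.2 and 25.5 FPKM in liver, with differences of 1.81 and 1.90. THRSP, a regulator of lipogenesis, stood at 272 FPKM in adipose tissue and 87.2 FPKM in liver, against 1.07 FPKM at most in the 7 other tissues.

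The supply of NADPH for that synthesis leaned to adipose tissue. ME1, malic enzyme, stood at 43.1 FPKM in adipose tissue and 0.504 FPKM in liver, a difference of 4.87. PGD, an oxidative enzyme of the pentose phosphate route, stood at 124 FPKM in adipose tissue and 20.5 FPKM in liver, but did not pass the limit after centring, which left ME1 as the 1 called gene on that side. IDH1, another source of NADPH, stood at 210 FPKM in adipose tissue and 192 FPKM in liver. The desaturases of polyunsaturated fatty acids lay on the other side. FADS1 and FADS2 stood at 4.37 and 4.37 FPKM in adipose tissue and at 284 and 174 FPKM in liver, with differences of -5.73 and -5.02.

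Within some steps of triglyceride synthesis, isoforms lay towards different tissues, but most genes of the list lay within the limit. Of 19 tested genes, 2 were higher in adipose tissue and 4 in liver, and the median of 0.47 lay below that of all genes and was -0.48 under the lowest of the alternatives. For the first step GPAT4 stood at 166 FPKM in adipose tissue and 46.8 FPKM in liver, a difference of 1.80 that fell short of the limit. The mitochondrial GPAM stood at 4.55 FPKM in adipose tissue and 39.0 FPKM in liver, so GPAT4 was the higher of the pair in both. For the second step AGPAT1 stood at 300 FPKM in adipose tissue and 2.98 FPKM in liver, a difference of 6.24. AGPAT2 stood at 9.91 FPKM in adipose tissue and 15.9 FPKM in liver, a difference of only -0.63. For the third, LPIN1 stood at 88.4 FPKM in adipose tissue and 1.63 FPKM in liver, and LPIN2 at 1.62 FPKM in adipose tissue and 16.8 FPKM in liver. The last step did not separate the tissues: DGAT2 and DGAT1 differed by 0.47 and 0.69, and by -0.48 and -0.20 with median-of-ratios scaling. ACSL1, which activates fatty acids, stood at 338 FPKM in adipose tissue and 659 FPKM in liver, and ACSL5 at 8.32 FPKM in adipose tissue and 77.1 FPKM in liver. GPD1, which makes glycerol 3-phosphate, was at 141 FPKM in adipose tissue and 71.0 FPKM in liver.

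Of 8 tested regulators of lipid synthesis, 1 was higher in adipose tissue and 2 in liver, with a median of -0.57. PPARG, the master regulator of adipocyte formation, stood at 115 FPKM in adipose tissue and 0.165 FPKM in liver. MLXIPL, a glucose-responsive factor, stood at 7.04 FPKM in adipose tissue and 37.2 FPKM in liver, and INSIG1, which restrains sterol synthesis, at 11.14 FPKM in adipose tissue and 59.9 FPKM in liver. SREBF1, the lipogenic factor, did not pass the limit, at 18.2 FPKM in adipose tissue and 27.0 FPKM in liver. CEBPA and CEBPB were listed at 0 in both libraries. CEBPA was listed at 0 in all 10 libraries, as was JUNB, a widely expressed immediate early gene, so a listed 0 may be a failed estimate.

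The list of glucose supply to lipid also holds genes of glucose synthesis and release, and its members fell on both sides. Of 16 tested, 5 were higher in adipose tissue and 4 in liver, and 3 and 4 after centring, when PKM and PC no longer passed. SLC2A4, the insulin-responsive glucose transporter gene, stood at 14.3 FPKM in adipose tissue and 0.35 FPKM in liver, and SLC2A2, the liver transporter gene, at 0.135 FPKM in adipose tissue and 36.9 FPKM in liver. The pyruvate kinase genes showed the same split, with PKM at 43.4 FPKM in adipose tissue and 7.76 FPKM in liver and PKLR at 0.28 FPKM in adipose tissue and 44.8 FPKM in liver. PC, pyruvate carboxylase, was at 1041 FPKM in adipose tissue, the highest value of the 9 tissues, and 212 FPKM in liver. PCK1, which in fat feeds glycerol synthesis and in liver glucose synthesis, stood at 444 FPKM in adipose tissue and 344 FPKM in liver. G6PC1, which releases free glucose, stood at 0.995 FPKM in adipose tissue and 186 FPKM in liver, and the mitochondrial PCK2 at 11.2 FPKM in adipose tissue and 283 FPKM in liver.

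**Figure D3:**
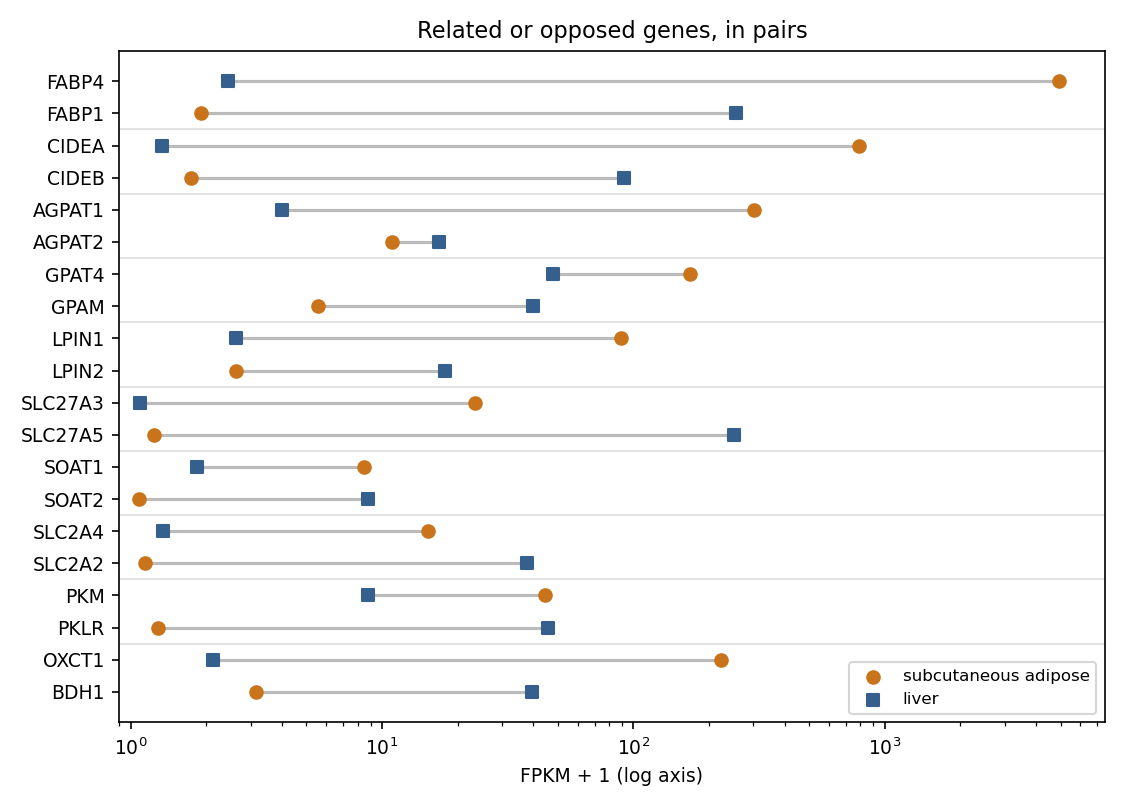
Levels of 20 genes set in 10 pairs that are related in sequence or opposed in pathway, as FPKM + 1 on a log axis, with adipose tissue as orange circles and liver as blue squares (1 library each). In every pair the upper gene has the higher value in adipose tissue and the lower gene in liver; the AGPAT2 and GPAT4 rows are the only ones within 4-fold. The pairs were chosen after the values were seen.

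Genes of lipid export lay entirely towards liver. All 15 tested genes of lipoprotein assembly and secretion were higher in liver, with a median of -6.89, and the 15 matched genes together summed to 969 FPKM in adipose tissue and 32218 FPKM in liver. APOB, the structural protein of these particles, stood at 0.955 FPKM in adipose tissue and 320.1 FPKM in liver, and MTTP, which loads lipid onto it, at 0.439 FPKM in adipose tissue and 112 FPKM in liver. APOA2 and APOC2 stood at 3.04 and 4.09 FPKM in adipose tissue and at 1343 and 1482 FPKM in liver. APOE, a receptor ligand that macrophages and adipocytes also make, was abundant in both, at 722 FPKM in adipose tissue (8.14% of liver) and 8863 FPKM in liver. APOA1, the main protein of high density lipoprotein, stood at 88.4 FPKM in adipose tissue (4.10% of liver) and 2157 FPKM in liver.

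Genes that act on lipoproteins in the circulation fell on both sides. Of 13 tested, 2 were higher in adipose tissue and 5 in liver, and the sign of the median of 0.65 changed between alternatives. ANGPTL4, an inhibitor of lipoprotein lipase, stood at 161 FPKM in adipose tissue and 34.6 FPKM in liver (not past the limit after centring), and SORT1, a sorting receptor, at 9.78 FPKM in adipose tissue and 0.462 FPKM in liver. LIPC (hepatic lipase) and LCAT (which esterifies plasma cholesterol) were at 0.903 and 1.12 FPKM in adipose tissue and at 118 and 83.3 FPKM in liver. The receptor genes LRP1 and SCARB1 differed by less than the limit, at 122 and 34.4 FPKM in adipose tissue and 43.0 and 21.5 FPKM in liver.

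Cholesterol synthesis was higher in liver along most of the route. Of 22 tested genes, 11 were higher in liver and 1 in adipose tissue, with a median of -1.91. MVK, an early enzyme, was furthest apart, at 1.25 FPKM in adipose tissue and 107 FPKM in liver. MSMO1, SC5D and TM7SF2, which work on the sterol ring, stood at 10.5, 3.01 and 3.61 FPKM in adipose tissue and at 134, 41.3 and 87.4 FPKM in liver. After centring, 15 genes of the list were higher in liver and none in adipose tissue. The gene higher in adipose tissue before centring was SOAT1, which esterifies cholesterol for storage, at 7.46 FPKM in adipose tissue and 0.828 FPKM in liver. Its relative SOAT2, known from liver and gut, stood at 0.0805 FPKM in adipose tissue and 7.80 FPKM in liver.

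Bile acid and sterol excretion followed, with 10 of 12 tested genes higher in liver, none in adipose tissue and a median of -3.66. ABCB11, the bile salt pump, stood at 0.161 FPKM in adipose tissue and 92.0 FPKM in liver, and SLC10A1, the bile acid importer, at 0.330 FPKM in adipose tissue and 113 FPKM in liver. AKR1D1, a reductase of bile acid synthesis, was at 1.203 FPKM in adipose tissue and 193 FPKM in liver. The sterol hydroxylase CYP27A1 was the most shared, at 95.6 FPKM in adipose tissue and 187 FPKM in liver.

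Most genes of fatty acid oxidation lay within the limit, while ketone metabolism was divided by role. Of 24 tested genes, 1 was higher in adipose tissue, 6 in liver and 17 lay between, with a median of -0.82, and after centring 11 were higher in liver. HADHA and HADHB, the subunits of the trifunctional enzyme, stood at 85.6 and 150.1 FPKM in adipose tissue and at 68.0 and 112 FPKM in liver. BDH1, which acts at the end of ketone body synthesis, stood at 2.14 FPKM in adipose tissue and 38.3 FPKM in liver. OXCT1, which lets tissues use ketone bodies and was the gene higher in adipose tissue, stood at 221 FPKM in adipose tissue and 1.12 FPKM in liver. CPT1A, the liver form of the mitochondrial gatekeeper, was at 21.1 FPKM in adipose tissue and 45.8 FPKM in liver. CPT1B, its muscle form, stayed below the filter at 4.31 FPKM in adipose tissue and 0.174 FPKM in liver. PPARA, a regulator of these genes, stood at 5.64 FPKM in adipose tissue and 29.6 FPKM in liver.

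Secreted signals lay on both sides, with 3 of 8 tested adipokine genes higher in adipose tissue and 3 in liver, and hormone receptors likewise, with 2 of 10 each way. ADIPOQ, the hormone adiponectin, stood at 2074 FPKM in adipose tissue and 0.188 FPKM in liver, while its receptor genes ADIPOR1 and ADIPOR2 were present in each, at 34.0 and 201 FPKM in adipose tissue and 22.7 and 104 FPKM in liver. CFD, the adipokine complement factor D, stood at 336 FPKM in adipose tissue and 26.7 FPKM in liver. AGT, the precursor of angiotensin, was at 292 FPKM in adipose tissue and 153 FPKM in liver. RBP4, the retinol carrier, stood at 76.9 FPKM in adipose tissue (4.91% of liver) and 1568 FPKM in liver. The receptors for glucagon and leptin lay towards liver, with GCGR at 0.442 FPKM in adipose tissue and 128 FPKM in liver and LEPR at 0.193 FPKM in adipose tissue and 8.95 FPKM in liver. PTGER3, a prostaglandin receptor that curbs lipolysis, stood at 11.4 FPKM in adipose tissue and 0.336 FPKM in liver. IRS2, a docking protein of insulin signalling, stood at 11.9 FPKM in adipose tissue and was listed at 0 in liver and in the other 8 libraries, and those 0 values may be failed estimates, so that its place among the receptors higher in adipose tissue is uncertain.

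The 10 named genes with the largest differences towards adipose tissue were FABP4, ADIPOQ, LPL, CIDEA, LIPE, PLIN1, CD36, APOD, CD209 and BCAM. The last 3 are in none of the lists: APOD, a lipocalin that binds lipids, stood at 410.0 FPKM in adipose tissue and 0.223 FPKM in liver, CD209, a lectin of myeloid cells, at 295 FPKM in adipose tissue and 0.268 FPKM in liver, and BCAM, a laminin receptor, at 784 FPKM in adipose tissue and 3.06 FPKM in liver. The 10 largest towards liver were ORM1, APOC3, PLG, TF, GC, APOA2, AMBP, TTR, C9 and ACSM4, and their differences spanned only -8.52 to -8.28. These sizes and their order depend on small adipose values. With the subtraction described below, the same genes ran from -9.40 (ACSM4) to -13.56 (APOC3).

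Transcripts of liver proteins were present in the adipose library at a small share of their liver level. Of 438 genes at 100 FPKM or more in liver, 130 were under 1% of the liver value in adipose tissue, and none of the 438 was listed at 0 there. Of the 438, 8 were listed at 0 in longissimus dorsi, 23 in kidney, 28 in ovary, 38 in lung, 60 in spleen, 64 in psoas major and 75 in heart. The 10 most abundant liver genes under 1% were ALB, APOC3, TF, AHSG, ORM1, APOH, AMBP, C3, HPX and VTN, all plasma proteins. ALB, serum albumin, stood at 127 FPKM in adipose tissue and 30453 FPKM in liver, or 0.417%. The iron carrier gene TF stood at 26.7 FPKM in adipose tissue and 9489 FPKM in liver, or 0.281%. AHSG, fetuin, stood at 14.9 FPKM in adipose tissue and 4636 FPKM in liver, or 0.322%. The other 7 of the 10 lay between 0.249% (ORM1) and 0.525% (C3).

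Because the choice of genes under 1% in adipose tissue limits that percentage, a set was also taken without using the adipose value. There were 64 genes at 100 FPKM or more in liver that were under 1% of liver in each of the 7 other tissues. In adipose tissue these stood at a median of 0.304% of liver, with quartiles of 0.255% and 0.424%, and 61 of the 64 were under 1%. Their liver values spanned 101 to 30453 FPKM and their adipose values 0.18 to 127 FPKM. Over these genes the log10 values in adipose tissue and liver had a Pearson correlation of 0.89 (64 genes, which share both libraries and are not replicates). In longissimus dorsi the same genes stood at a median of 0.057%, with 3 listed at 0, and in psoas major, spleen and heart at a median of 0, with 40, 41 and 44 listed at 0. The exceptions in adipose tissue were RBP4 at 4.91%, HSD17B6, a hydroxysteroid dehydrogenase gene, at 3.72%, and an unnamed gene at 2.11%.

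Of the 69 lipid list members higher in liver, 28 were under 1% of liver in adipose tissue and 41 were at 1% or more. APOB (0.298%), APOC2 (0.276%), FABP1 (0.353%) and MTTP (0.392%) lay between the quartiles of 0.255% and 0.424%. So did the hepatocyte marker CYP2E1 (0.307%), an enzyme of drug metabolism. FADS1 (1.54%), APOM (2.57%), APOA1 (4.10%) and APOE (8.14%) stood above the upper quartile. A share of 0.304% of the liver value, chosen after the data were seen, was also subtracted from every adipose value. This left 1041 genes higher in adipose tissue and 687 in liver. The sizes of the largest liver differences moved far more than the counts: APOC3 went from -8.48 to -13.56 and TF from -8.42 to -13.21. The traces may be carry-over between tissues or libraries, or transcription in adipose tissue, and their source was not tested.

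**Figure D4:**
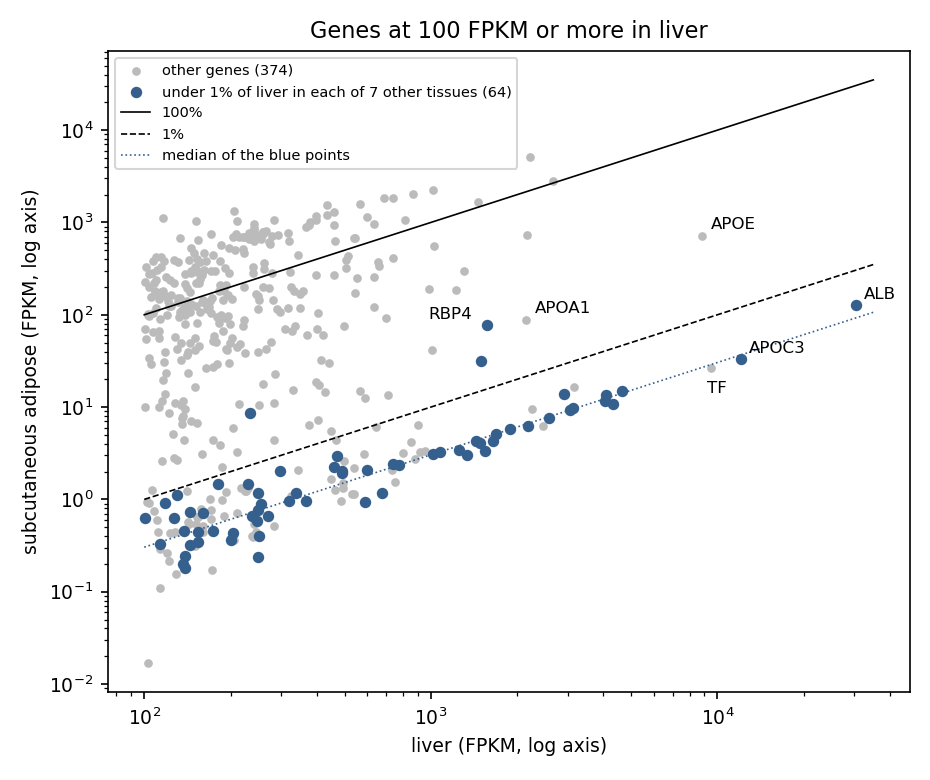
Adipose tissue value (vertical) against liver value (horizontal), in FPKM on log axes, for 438 genes at 100 FPKM or more in liver. Blue points are the 64 genes under 1% of liver in each of 7 other tissues; they follow the dotted line at their median of 0.304%, below the dashed line at 1%, except RBP4 and 2 others, while APOE and APOA1 lie above 1%.

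**Figure D5:**
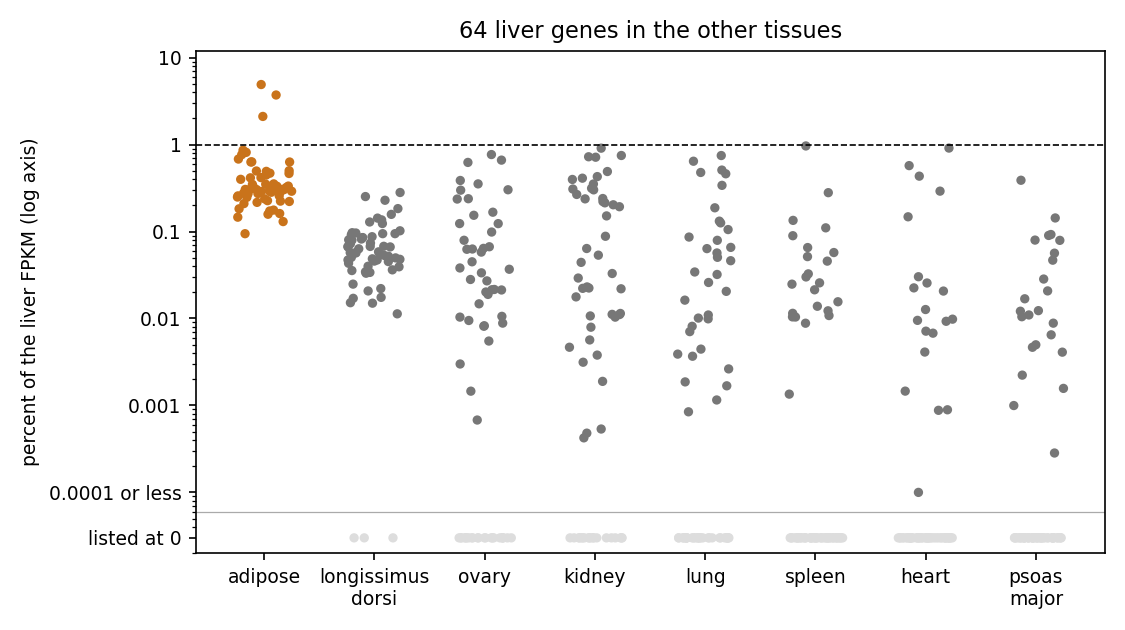
The same 64 genes as a percentage of their liver value in adipose tissue and the 7 other tissues, each point a gene, on a log axis with genes listed at 0 in a band at the bottom. Only the 7 other tissues were held under 1% (dashed line) by the choice of genes; none was listed at 0 in adipose tissue, 3 were in longissimus dorsi, and 44 were in heart.

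Lists of genes of other cell types were compared as well. Their counts are to be read against the all-gene shares of 13.3% and 8.78%, and several of these short lists lie near them. Of 16 fibroblast and matrix genes, 15 were higher in adipose tissue and none in liver, with a median of 5.81, and their summed level was 16524 FPKM in adipose tissue and 809 FPKM in liver. COL3A1, a fibrillar collagen, stood at 5000.3 FPKM in adipose tissue and 71.6 FPKM in liver, and FN1, fibronectin, which hepatocytes secrete, at 171 FPKM in adipose tissue and 546 FPKM in liver. The 7 endothelial genes, all tested, summed to 383 FPKM in adipose tissue and 98.2 FPKM in liver. Of these, PECAM1 alone passed the limit, towards adipose tissue, and none did with median-of-ratios scaling. The 10 macrophage genes summed to 374 FPKM in adipose tissue and 513 FPKM in liver. Of the 8 tested, only CD14 was past the limit, towards liver. Of 9 tested genes of the liver sinusoid and its macrophages, 3 were higher in liver, none in adipose tissue and 6 lay between. STAB2 and CLEC4G were at 0.0436 and 0.164 FPKM in adipose tissue and 20.3 and 48.7 FPKM in liver. FCN2, a ficolin, was at 205 FPKM in adipose tissue and 70.2 FPKM in liver, a difference of 1.53, short of the limit. The 10 skeletal muscle genes summed to 54.6 FPKM in adipose tissue and 11.2 FPKM in liver, or 0.0336% to 0.128% of their longissimus dorsi values in adipose tissue and 0.0104% to 0.0409% in liver. The 9 lymphocyte genes summed to 8.86 FPKM in adipose tissue and 13.3 FPKM in liver, and the 1 that was tested lay within the limit. How much these other cells contribute to the lipid genes was not tested.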

How the data were processed

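RNA abundance in 10 libraries was read from 1 deposited table with 1 value per gene and library. The header names no unit. The deposited values were read as FPKM, since they are not whole numbers, sum to 292495 to 369254 per library and StringTie is named. A related unit scaled within each library is possible. Per the submitters' processing notes, TopHat2 2.1.0, StringTie 1.2.2 and Sscrofa11.1 were used; the sources used here do not give their roles, the annotation release or the strand setting. Depth was estimated from steps in genes spanning 400 to 1500 bp.

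Symbols came from Ensembl identifiers (14857 genes) or, where absent, from the best reciprocal RefSeq overlap of at least 0.5 on Sscrofa11.1 (1714 genes), naming 64.0% of genes. Among 12553 genes named both ways, 95.1% of names were equal. For a shared symbol the gene with the highest mean was used. The models of ABCB11, ABHD5, ACACA, ADIPOR1, AGPAT2, ALB, APOC2, C9, CFD, CIDEB, CPT1B, CYP27A1, DGAT1, FABP3, G6PC1, GPD1, HADHA, HADHB, LCAT, LPIN2, MSMO1, ORM1, PC, PECAM1, PKLR, PKM, PLG, PLIN4, PNPLA2, SLC10A1, SLC27A2, SLC27A3, SLC27A5, SORT1, SREBF1 and TM7SF2 overlap another named gene and may include reads of the neighbour.

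The members and all 28 gene lists were chosen with earlier results of these data known. The text names members of the lists, the 10 largest differences each way, the highest genes and the 10 most abundant traces; JUNB, IER2, HSD17B6 and the genes drawn in the level and pair plots were chosen after values were seen. Some genes are not reported here. The procedure was tested on simulated data. Promoter sequences were not used here. Python 3.11.15, numpy 2.4.6, pandas 2.3.3 and matplotlib 3.10.9 were used.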

Additional observations from a re-analysis of the deposited data

How the results depend on the processing

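With 1041 genes higher in adipose tissue and 685 in liver as reported, a pseudocount of 5 gave 407 and 450. A filter of 20 FPKM gave 507 in adipose tissue. A limit of 1 gave 3058 and 1087, and a limit of 3 gave 416 in adipose tissue. Centring on the median gave 530 in adipose tissue, quantile normalisation 651, and median-of-ratios scaling 583 and 1129. These 3 scalings, the limit of 3 and the pseudocount of 5 put more calls on the liver side than on the adipose side. The other alternatives stayed within 1.5 times of the reported counts. The count of liver transcripts under 1% in adipose tissue fell to 44 (of 81 genes) with a floor of 500 FPKM in liver, which leaves fewer genes. The share under 1% did not fall, at 54.3% with that floor and 22.1% (173 of 784 genes) with a floor of 50 FPKM. The cause of the other changes was not tested. Of 174 named genes past the limit, none changed sign under the 8 settings of pseudocount, scaling and subtraction; 38 were no longer past it with a pseudocount of 5, 13 after centring (among them PKM, PGD, VLDLR, MYL11, ACTA1, ACTA2, PC, ANGPTL4, BSCL2, SOAT1, PDGFRB and PLIN2) and 14 after median-of-ratios scaling. List medians changed sign for triglyceride synthesis, lipoprotein remodelling, adipokines, hormone receptors and glucose supply among the lipid lists. No paired analysis was possible because each tissue has 1 library. Values near 0 rest on few reads, and no replicate error can be given.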

Other observations

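Some genes were listed at 0 in all 10 libraries, among them JUNB and IER2, immediate early genes chosen after the values were seen, and G0S2, an inhibitor of PNPLA2 that is on the lipid droplet list. Of the 25880 genes, 5612 were listed at 0 in all 10 libraries. Of 27 tested plasma protein genes 26 were higher in liver. All 28 matched genes of that list summed to 818 FPKM in adipose tissue and 96908 FPKM in liver. Of 7 tested liver transcription factors 6 were higher in liver. Among them, HNF4A stood at 0.515 FPKM in adipose tissue and 50.03 FPKM in liver (1.03% of liver), and ONECUT1 at 0.0723 FPKM in adipose tissue and 7.75 FPKM in liver (0.932%). Transcripts of other tissues were read in adipose tissue in the same way. Of 55 genes at 100 FPKM or more in longissimus dorsi and under 1% of it in the other tissues (adipose tissue, psoas major and heart not considered), 52 were under 1% in adipose tissue and none was listed at 0, with a median of 0.116% of longissimus dorsi. The median was 0.0153% of kidney for 19 kidney genes and 0.0145% of lung for 8 lung genes. In liver, 4 genes chosen in this way for adipose tissue (ADIPOQ, CIDEA, PLIN1 and THRSP) stood at a median of 0.0902% of adipose tissue. Of these, 3 were under 1%, and the upper quartile was 8.13% because THRSP was well expressed in liver. Of 6 smooth muscle and mural cell genes, 3 were higher in adipose tissue (1 after centring), and they summed to 236 FPKM in adipose tissue and 38.2 FPKM in liver. Erythroid genes summed to 126 FPKM in adipose tissue and 154 FPKM in liver, and keratinocyte genes to 11.6 FPKM in adipose tissue and 10.6 FPKM in liver. The bile duct list summed to 80.2 FPKM in adipose tissue and 6.99 FPKM in liver, and the adipose sum was nearly all SPP1, the secreted phosphoprotein osteopontin, at 80.0 FPKM in adipose tissue and 4.21 FPKM in liver.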
